A study of Bos taurus with 8 samples.

Results

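The immune checkpoint and tolerance genes are 9 genes named by a fixed list: IDO1, CD274, PDCD1LG2, CTLA4, FOXP3, IL10, HAVCR2, ENTPD1 and NT5E. They were found by gene symbol among the 16812 named genes of an Agilent bovine array and had 18 of its 51282 probes. Of the 9 genes, 4 gave a signal on enough arrays to be tested, and 2 of these, ENTPD1 and NT5E, were lower in the arrays labelled pregnant. The other 2, IL10 and HAVCR2, did not pass the test. The same test called 62.3% of the 13361 tested genes, 32.5% as lower, so the count of 2 in 4 does not set the members apart. IDO1, CD274, PDCD1LG2, CTLA4 and FOXP3 were at or near background on most or all arrays.

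RNA of 8 samples was measured on 1-colour arrays. By their labels 4 samples are non-pregnant (described as before pregnancy) and 4 are pregnant (described as after pregnancy), and all 8 are given as female fetal cotyledon, which is the part of the ruminant placenta formed by the fetus. The labels name cattle, whereas 1 protocol text shared by all 8 says that gravid uteri of buffalo were taken at a slaughterhouse. Breed, age and stage of pregnancy are not given in the sources used here, and no label says that samples of a group came from separate animals, so the p-values measure the spread between these samples, which may be technical. Measured placental transcripts go against the group labels. All 4 pregnancy-labelled arrays had far less signal of trophoblast genes: 15 of 17 tested trophoblast markers were lower there and 1 was higher (ELF5, 3.03, named after its value was seen). The pregnancy-associated glycoprotein gene PAG11 differed by -10.95 on the log2 scale and the placental lactogen gene CSH2 by -8.39. Of 10 tested endometrial markers 6 were higher there, among them HOXA10 (4.31), a transcription factor gene of the uterus, 1 was lower (MSX1, -1.05) and 3 were not called. Among the 5 endometrial markers well above background on all 8 arrays, 2 were higher and 1 lower. The groups are therefore called the arrays labelled non-pregnant and the arrays labelled pregnant.

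All 8 arrays were on 1 slide with 1 scan time, the non-pregnant-labelled arrays in slide row 1 and the pregnant-labelled arrays in slide row 2, so row and group cannot be told apart. The share of probes well above background ran from 60.6% to 69.5% over the arrays, and array-to-array correlations were 0.943 or higher within groups and 0.736 to 0.783 between them. Values are log2 processed intensities relative to the array's own 75th percentile, so that 0 is the level of that percentile. A gene stands for its brightest tested probe, and a probe was tested if 4 or more of the 8 arrays read it well above background. Differences are labelled pregnant minus labelled non-pregnant, from limma with Benjamini-Hochberg adjustment over 34627 probes, and called at an adjusted p under 0.05. By that rule 62.3% of the 13361 tested genes were called, 32.5% lower and 29.7% higher, and the groups did not overlap for 59.7% of them. The median difference over all genes was -0.01. In whole tissue, fewer cells of a type and less RNA per cell cannot be told apart.

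Immune checkpoints are receptor and ligand pairs that restrain T cells. CTLA4 competes with CD28 for ligands on antigen-presenting cells, the programmed death ligands CD274 and PDCD1LG2 engage the receptor PDCD1, and HAVCR2 (TIM3) is a further inhibitory receptor of T cells and myeloid cells. Tolerance also runs through soluble routes. IDO1 consumes tryptophan and makes kynurenine, whereas ENTPD1 (CD39) breaks down extracellular ATP and ADP to AMP, from which NT5E (CD73) releases adenosine. FOXP3 is the defining transcription factor of regulatory T cells, and IL10 is a cytokine that dampens inflammation. In the placenta these genes are studied for the tolerance of the mother towards fetal tissue.

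What the array could see of each gene is set by its probes of 60 bases, of which 5 are shown to let a probe of each kind be seen. They are cattle sequences from the scanner files, printed 5′ to 3′ with no capitals, since the whole run is the probe, and each reads through without a stop codon in at least 1 forward frame. The first pair belongs to the enzymes that were lower in the arrays labelled pregnant and is in each case a dimmer probe than the one that stands for the gene. The next 3 are untested probes, that of IDO1 well above background on no array and those of CTLA4 and FOXP3 each on a single one.
ENTPD1, from base 643 of the transcript: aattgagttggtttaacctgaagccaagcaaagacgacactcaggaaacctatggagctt
NT5E, from base 689 of the transcript: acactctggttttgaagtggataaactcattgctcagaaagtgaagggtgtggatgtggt
IDO1, from base 1177 of the transcript: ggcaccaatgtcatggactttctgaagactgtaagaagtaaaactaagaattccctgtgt
CTLA4, from base 587 of the transcript: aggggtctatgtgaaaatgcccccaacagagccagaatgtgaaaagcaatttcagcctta
FOXP3, from base 1081 of the transcript: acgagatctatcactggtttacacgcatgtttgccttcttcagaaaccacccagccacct

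On the Btau_3.1 build named in the file headers, the ENTPD1 probe lies at chr26:17639269-17639328 on the plus strand and the NT5E probe at chr9:65792850-65792909 on the minus strand. The IDO1 probe is placed at chr27:37390603-37390660 (plus), a span of 58 bases for a probe of 60. The CTLA4 probe is at chr2:96952189-96952248 (plus) and the FOXP3 probe at chrX:55231903-55231962 (plus). The exons that hold these intervals are not named in the files used here. How far each cattle probe matches buffalo transcripts was not tested, so only values of the same probe are compared.

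**Figure D1:**
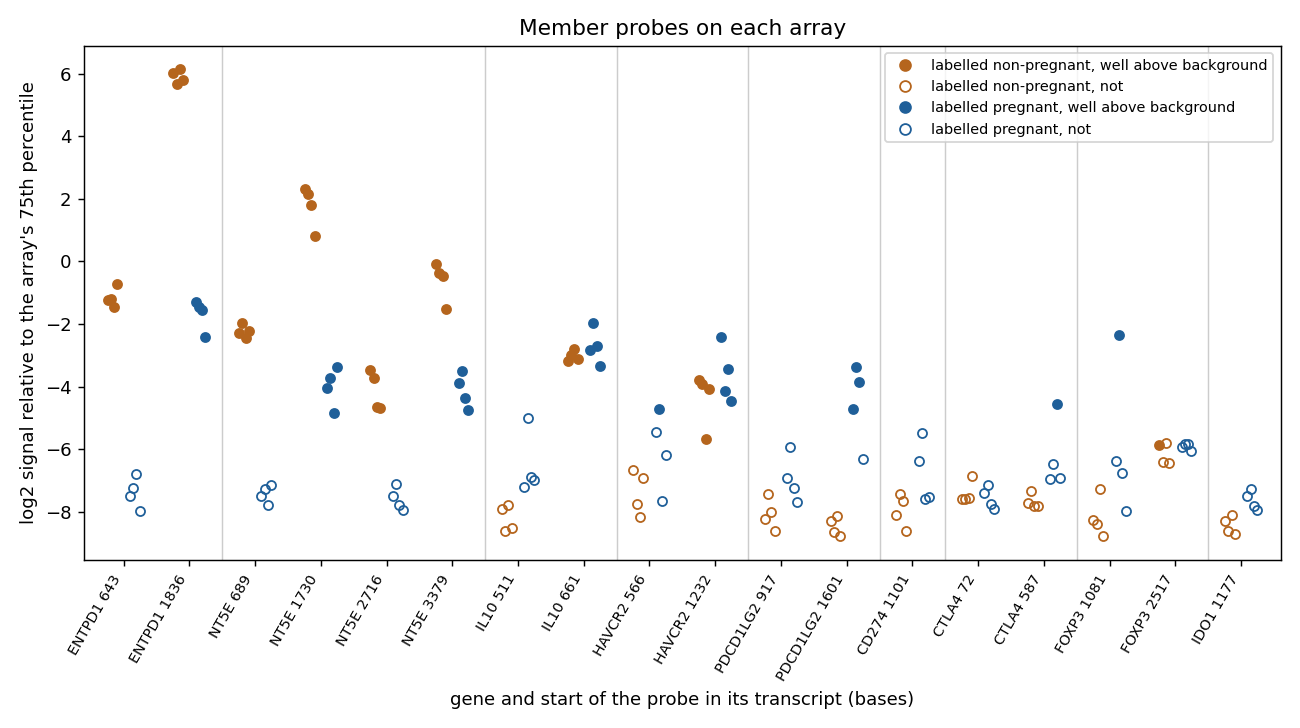
Signal of all 18 probes of the 9 genes on each of the 8 arrays, as log2 relative to the array's 75th percentile, with filled points for probes well above background and open points for the others. The 2 ENTPD1 and 4 NT5E probes separate the groups, IL10 from base 661 and HAVCR2 from base 1232 overlap, and most other points are open and lie below -4.

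ENTPD1, the membrane enzyme that removes phosphates from extracellular ATP and ADP, had the largest difference of the 4 tested genes. Its brighter probe, from base 1836 of the transcript (chr26:17661603-17661662, plus), read 6.02, 5.68, 6.14 and 5.80 on the arrays labelled non-pregnant. On the arrays labelled pregnant it read -1.30, -1.45, -1.56 and -2.41. The processed intensities behind these values were 75593 to 100152 in the first group and 254 to 354 in the second. All 8 spots were well above background, the groups did not overlap, and the lowest sample was pregnant-labelled replicate 4. Means were 5.91 ± 0.21 in the first group and -1.68 ± 0.50 in the second (SD, n = 4 each). The signal was thus 192-fold lower in the arrays labelled pregnant, a log2 difference of -7.59 (SE 0.27, limma adjusted p = 1.88e-07). Of the 13361 tested genes, 87 (0.651%) had a more negative difference.

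The other ENTPD1 probe, the one from base 643, read -1.22, -1.20, -1.46 and -0.73 on the arrays labelled non-pregnant. It read -7.51, -7.25, -6.78 and -7.98 on the arrays labelled pregnant and was not well above background on any of them. Here the array gives a bound only. A probe with no array well above background in a group was set, array by array, at the higher of its own value and the array's lowest signal well above background. By that rule the signal was at least 39.6-fold lower (fitted log2 difference -6.23, SE 0.28, limma adjusted p = 5.73e-07). Both ENTPD1 probes, at separate places in the transcript, read lower in the arrays labelled pregnant. The probe from base 643 passed the filter through the arrays labelled non-pregnant alone, so its direction is no separate support.

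NT5E, which turns AMP into adenosine at the cell surface, had 4 probes, and all 4 were lower in the arrays labelled pregnant. The brightest, from base 1730 (chr9:65764199-65764258, minus), read 2.31, 2.15, 1.81 and 0.83 on the arrays labelled non-pregnant. On the arrays labelled pregnant it read -4.03, -3.73, -4.84 and -3.37. Every array was well above background, the groups did not overlap, and non-pregnant-labelled replicate 4 was the lowest of its group. The means were 1.77 ± 0.67 and -3.99 ± 0.62 (SD, n = 4 each), a log2 difference of -5.77 (SE 0.40, limma adjusted p = 5.06e-06), or 54.5-fold lower. A more negative difference was found for 202 of the tested genes (1.51%).

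The probe from base 3379 (chr9:65762550-65762609, minus) read -0.10, -0.36, -0.46 and -1.52 against -3.89, -3.49, -4.35 and -4.76. Both groups were measured throughout, and the difference was -3.51 (SE 0.37, limma adjusted p = 5.66e-05), an 11.4-fold lower signal. The remaining pair was not well above background on any pregnant-labelled array. From base 689, NT5E read -2.28, -1.96, -2.45 and -2.22 against -7.50, -7.29, -7.80 and -7.16, at least 18.8-fold lower. From base 2716 (chr9:65763213-65763272, minus) it read -3.48, -3.74, -4.64 and -4.68 against -7.50, -7.12, -7.80 and -7.96, at least 4.998-fold lower. The limma adjusted p of these probes was 3.05e-07 and 3.07e-05. In each of the 4 probes the groups stood clear of each other, although the fitted sizes ran from -5.77 to -3.46. The probes from bases 689 and 2716 passed the filter through the arrays labelled non-pregnant alone, so their direction is no separate support. With all tested probes averaged, NT5E differed by -4.49. Over the whole array 29.1% of tested probes were lower in the arrays labelled pregnant.

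**Figure D2:**
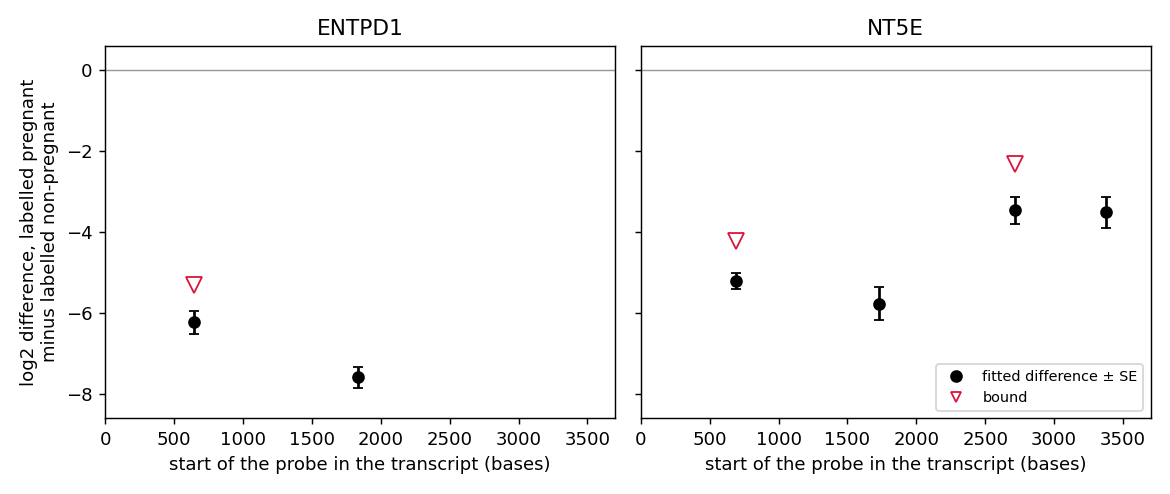
Log2 difference ± SE, labelled pregnant minus labelled non-pregnant (4 arrays each), of each ENTPD1 and NT5E probe against its start in the transcript in bases. All 6 fitted differences lie between -7.59 and -3.46, and triangles give the bound for the 3 probes not well above background in the arrays labelled pregnant.

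The genes around these enzymes were called in both directions, as were all genes tested. Of 21 listed genes of extracellular nucleotide and adenosine handling, the 2 enzymes left out, 16 were tested. Of these 5 were higher in the arrays labelled pregnant, 6 lower and 5 not called, with a median difference of -0.70. Over all genes 29.7% were higher and 32.5% lower, and the list's counts lie near these shares. ADA, which removes adenosine by turning it into inosine, fell from 6.96 ± 0.28 to 2.68 ± 0.31 (SD, n = 4 each), a difference of -4.29 (limma adjusted p = 1.20e-06). DPP4, a membrane protein that anchors ADA outside the cell, was lower by a difference of -2.29 and was well above background on 1 of the 4 arrays labelled pregnant. P2RX4, a channel opened by ATP, was lower by a difference of -3.28. The remaining 3 lower genes, named after their values were seen, were ENPP1 (-2.71) and ENPP3 (-3.06), which split extracellular nucleotides, and the adenosine kinase gene ADK (-1.03).

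Of the 4 tested adenosine receptor genes, 2 were higher and 2 were not called. ADORA2B rose from -3.62 ± 0.47 to -0.12 ± 0.24 (SD, n = 4 each), a difference of 3.50 (limma adjusted p = 7.66e-06), and ADORA3 was higher by 4.11. ADORA1, named after its value was seen, differed by -0.38 and was not called. ADORA2A, the receptor best known for restraining T cells, had a difference of 0.12 and overlapping groups, with a sign that turned under some scalings. ENTPD2, another enzyme of the ENTPD1 family, differed by 0.34 and was not called. ENTPD3 was well above background on no array. CD38 (2.91), which makes ADP-ribose from NAD, and the genes PNP (1.43) and SLC29A1 (1.44), for purine breakdown and nucleoside transport, were the other 3 higher genes, named after their values were seen.

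**Figure D3:**
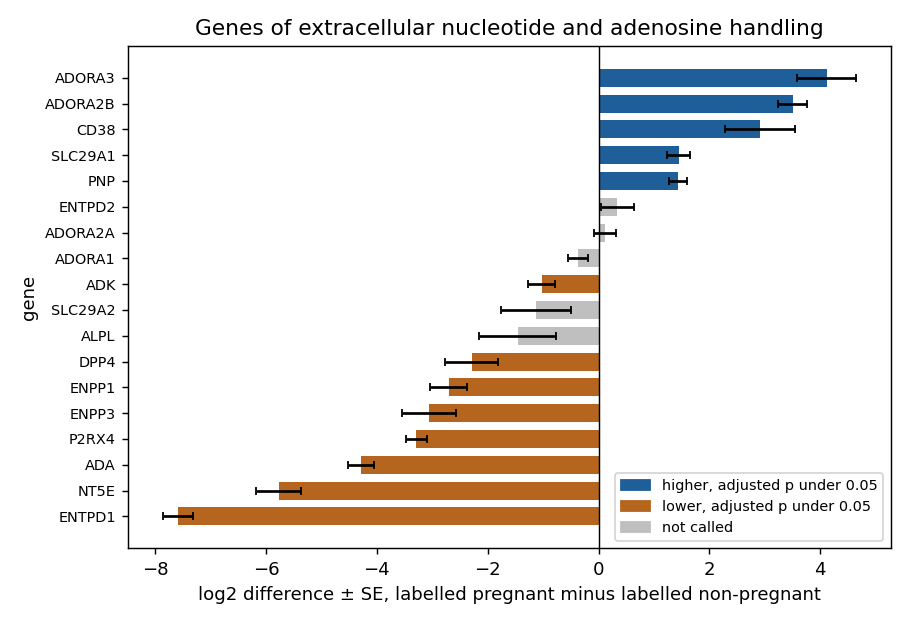
Log2 difference ± SE, labelled pregnant minus labelled non-pregnant (4 arrays each), for ENTPD1, NT5E and the 16 tested genes of extracellular nucleotide and adenosine handling. ENTPD1 (-7.59) and NT5E (-5.77) are at the low end and ADORA2B (3.50) and ADORA3 (4.11) at the high end.

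Trophoblast and erythroid markers mostly moved with the 2 enzymes, while endothelial markers and macrophage and dendritic cell markers were mixed. The shares over all genes were 29.7% higher and 32.5% lower. The trophoblast markers, 15 of 17 lower, had a summed signal of 1021 to 1525 times the 75th percentile in the arrays labelled non-pregnant and 38.9 to 53.2 in those labelled pregnant. CDX2 and PLAC1, named after their values were seen, were well above background on no array labelled pregnant. The erythroid markers, 8 of 9 lower, summed to 337 to 604 against 0.716 to 2.96. Endothelial cells are known to carry ENTPD1, and their markers were mixed, with 5 of 14 higher, 3 lower and a sum of 18.2 to 20.8 against 38.2 to 63.3. VWF was higher by 5.82, while PECAM1 (-1.19), FLT1 (-3.68) and ESAM (-1.14), named after their values were seen, were lower. The macrophage and dendritic cell markers were 8 of 12 higher and 2 lower, CSF1R (-1.93, named after its value was seen) and AIF1 (-3.09). Their sum was 96.1 to 138 against 20.7 to 49.1. In the arrays labelled non-pregnant it was set mostly by CSF1R and AIF1, with means of 5.99 and 5.43. The mean log2 signal of the list went the other way, -2.03 to -1.64 against -1.03 to 0.58. The part of these cells in the ENTPD1 and NT5E result was not tested.

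Genes whose signal across the 8 arrays was most like that of ENTPD1 were PLET1, RACGAP1 and NPPC (Pearson r 0.999 each). For NT5E they were H2AL1Q, TMEM243 and TENT2 (0.997, 0.996 and 0.996). All 6 were lower in the arrays labelled pregnant, and since the arrays fall into 2 separate sets for every one of them, these values describe little beyond the group difference. PLET1, a placenta-expressed surface protein, and NPPC, the C-type natriuretic peptide, were at least 1485-fold and at least 1067-fold lower. RACGAP1, which acts in cell division, differed by -5.62. H2AL1Q, TMEM243 and TENT2 differed by -4.28, -2.69 and -1.08.

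IDO1, the tryptophan-consuming enzyme, was well above background on no array. Its single probe had processed intensities of 3.74 to 4.57 in the group labelled non-pregnant and 4.45 to 6.31 in the other. Both groups therefore have only an upper bound for IDO1, and no fold is given.

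The rest of the pathway was measured in part. IDO2 and TDO2, which open the same pathway, were well above background on no array, and KMO on 1. Of 18 tested genes of tryptophan and kynurenine handling 5 were higher, 2 lower and 11 not called, with a median difference of 0.26. Over all genes 29.7% were higher and 32.5% lower. WARS1, the tryptophan transfer RNA ligase, was higher by 2.32 (limma adjusted p = 0.00105) with no opposite call among its 4 other tested probes. AFMID, which completes kynurenine formation, was higher by 2.37. KYAT3, which converts kynurenine to kynurenic acid, was lower by a difference of -2.86 (limma adjusted p = 6.79e-06). KYNU, which cleaves kynurenine, read -0.53 ± 0.22 and -0.74 ± 0.23 (SD, n = 4 each) and was not called. HAAO, a later enzyme of the pathway, was called higher by 2.42 on its brightest probe, while its other tested probe was called in the opposite direction. SLC7A5, a carrier of tryptophan and kynurenine, was called higher by 1.37 (limma adjusted p = 0.0248), and lost the call without non-pregnant-labelled replicate 2, 3 or 4 (adjusted p 0.0601, 0.0660 and 0.0522), with median scaling (0.0912) and with no scaling (0.0735). AHR, the receptor that kynurenine activates, differed by 0.06 with overlapping groups and a sign that turned under several scalings. Of its 2 other tested probes 1 was called. The other higher gene, CYP1B1, a target of that receptor, and the other lower gene, TIPARP, also a target, were named after their values were seen: CYP1B1 was at least 66.4-fold higher and TIPARP differed by -1.39.

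Of the programmed death ligands, CD274 was well above background on no array. Its probe, spotted 2 times, had processed intensities of 4.24 to 9.05 in the arrays labelled non-pregnant and 5.30 to 21.5 in those labelled pregnant, so both groups have a bound only.

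PDCD1LG2 was the single gene of the 5 untested ones that passed the background on most arrays of a group. Its probe from base 1601 (chr8:41315688-41315747, minus) read -8.28, -8.64, -8.15 and -8.79 on the arrays labelled non-pregnant, all below background. It read -4.72, -3.38, -3.84 and -6.33 on the arrays labelled pregnant, where replicates 1, 2 and 3 were well above background and replicate 4 was not. The intensities were 3.75 to 4.38 against 16.7 to 93.4. The groups did not overlap, and by the rule used for ENTPD1 the signal was 6.47-fold higher in the arrays labelled pregnant. That value takes the dim replicate 4 at its own reading, so it is not a strict lower bound. With 3 arrays above background the probe missed the filter. Without the filter its fitted difference was 3.90 (SE 0.57, limma adjusted p = 0.000491). The second PDCD1LG2 probe, from base 917, was well above background on no array, so the higher signal rests on 1 probe.

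Their receptor PDCD1, tested on all 8 arrays, rose from -0.87 ± 0.47 to 1.21 ± 0.18 (SD, n = 4 each), a difference of 2.08 (SE 0.25, limma adjusted p = 0.000131). The groups did not overlap.

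CTLA4 had 2 probes. The one from base 587 read -7.72, -7.34, -7.80 and -7.82 on replicates 1 to 4 labelled non-pregnant, against -6.94, -6.46, -4.57 and -6.92 on replicates 1 to 4 labelled pregnant. The groups did not overlap, but only pregnant-labelled replicate 3 was well above background, with an intensity of 43.0 against 6.50 to 11.1 on the other 3 arrays of its group. The probe from base 72 was well above background on no array and read -7.60 to -6.85 and -7.91 to -7.14 in the 2 groups. Of the proteins that share CTLA4 ligands or bind it, CD80 was well above background on no array and CD28 on at most 2. CD86, tested on all arrays, read -0.74 ± 0.31 and 0.03 ± 0.82 (SD, n = 4 each) and was not called (difference 0.77, limma adjusted p = 0.117), while its other tested probe was called. With the mean of its tested probes CD86 was called higher by 1.52 (limma adjusted p = 0.00945), and without pregnant-labelled replicate 4 by 1.17 (0.00256).

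HAVCR2 was measured on all 8 arrays by its probe from base 1232 (chr7:68546327-68546386, minus). The values were -3.79, -3.92, -5.68 and -4.07 in the group labelled non-pregnant, against -2.41, -4.16, -3.44 and -4.47 in the group labelled pregnant. The groups overlapped, with means of -4.37 ± 0.88 and -3.62 ± 0.91 (SD, n = 4 each). The difference of 0.75 (SE 0.54) did not pass the test (limma adjusted p = 0.260) and fell to 0.31 without non-pregnant-labelled replicate 3, the lowest array. The second HAVCR2 probe was well above background on pregnant-labelled replicate 2 alone. The HAVCR2 ligands LGALS9 and CEACAM1 differed by 0.07 and 0.38, were not called and changed sign under some scalings. For CEACAM1, 1 of its 2 other tested probes was called. The genes most like HAVCR2 over the 8 arrays were MB (Pearson r 0.955), TMIGD2 (0.934) and GFI1 (0.926), none of them called, though TMIGD2 was without pregnant-labelled replicate 4 (0.84, adjusted p = 0.0269).

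Of 28 listed checkpoint and costimulatory genes other than CTLA4, CD274, PDCD1LG2 and HAVCR2, 16 were tested: 8 were higher in the arrays labelled pregnant, 0 lower and 8 not called. Over all genes 29.7% were higher, and the list's median difference was 0.95. Several of the 8, ICOS among them, passed the filter through the arrays labelled pregnant alone or mainly, and among the 11 genes well above background on all 8 arrays 3 were higher (PDCD1, TNFRSF4 and CD276), so the count is not read against the share over all genes. ICOS, a costimulatory receptor of activated T cells, was well above background on no array labelled non-pregnant and on all 4 labelled pregnant, at least 133-fold higher. TNFRSF4 (OX40), also costimulatory, was higher by 2.28, and CD276, an inhibitory ligand of the B7 family, by 0.95. LAG3 was well above background on 3 arrays, all labelled pregnant, and TIGIT on none. The checkpoint list's median was 0.46 with no scaling between arrays, where CD276 was not called (adjusted p = 0.150).

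**Figure D4:**
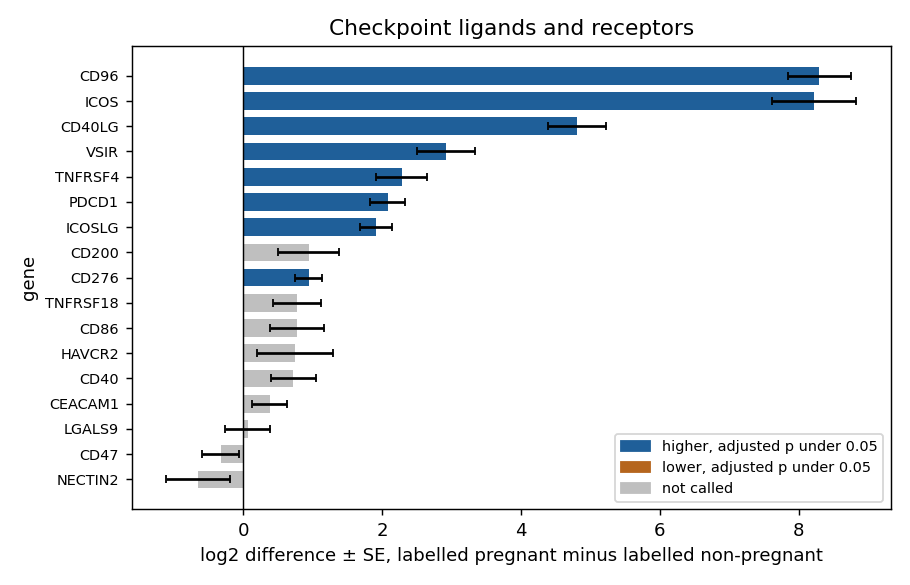
Log2 difference ± SE, labelled pregnant minus labelled non-pregnant (4 arrays each), for HAVCR2 and the 16 tested checkpoint and costimulatory genes. ICOS (8.22) and PDCD1 (2.08) are among the 8 called higher, no bar is called lower, and HAVCR2 (0.75) is among the uncalled bars. Bars are fitted values, also for ICOS, which was below background in 1 group.

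FOXP3 was well above background on a single array with each of its probes, and not on the same one. From base 1081 it read -8.28, -8.40, -7.27 and -8.77 in the group labelled non-pregnant, against -6.37, -2.34, -6.75 and -7.97 in the group labelled pregnant. Only pregnant-labelled replicate 2 passed, with an intensity of 192 on its 1 spot, against 5.36 to 9.63 on the other 3 arrays of that group. The groups overlapped. From base 2517 (chrX:55233125-55233184, plus) FOXP3 read -6.43 to -5.80 and -6.07 to -5.84 in the 2 groups and passed on non-pregnant-labelled replicate 1 alone.

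Other genes tied to regulatory T cells were measured. Of 19 tested genes of that list 9 were higher in the arrays labelled pregnant, 3 lower and 7 not called, with a median difference of 0.78. The shares over all genes were 29.7% higher and 32.5% lower. IL12A, named after its value was seen, passed the filter through the arrays labelled pregnant alone, so the count is not read against these shares. With only probes well above background on all 8 arrays, 8 of 16 were higher and 3 lower. IL2RA, the IL2 receptor chain that these cells carry at high level, read -4.99 ± 0.28 and -5.09 ± 0.15 (SD, n = 4 each) and was not called, with a sign that turned under some scalings. BATF, a transcription factor of effector and regulatory T cells, was higher by 3.11 (limma adjusted p = 0.000232), and SATB1, a chromatin organiser of T cells, by 2.97. CBFB, a partner of RUNX factors, was lower by a difference of -6.42 (limma adjusted p = 1.99e-06) and GATA3 by -4.87. GATA3 also stands on the trophoblast list. The third lower gene, NFATC2 (-2.85), was named after its value was seen.

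**Figure D5:**
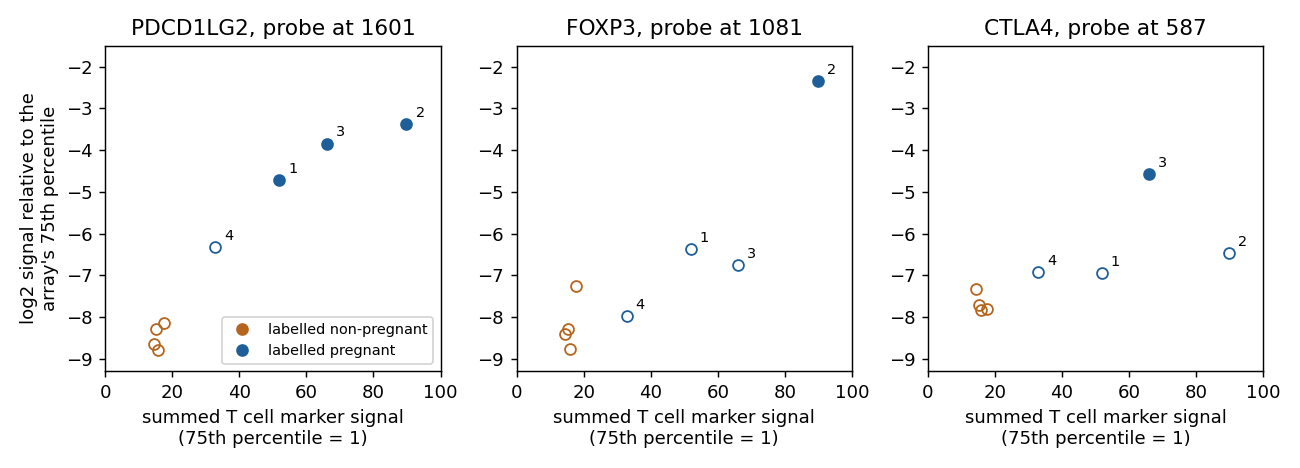
Log2 signal of PDCD1LG2, FOXP3 and CTLA4 probes relative to the array's 75th percentile against the summed signal of 14 T cell markers (75th percentile = 1) on the same array. Filled points are well above background, numbers are the replicates labelled pregnant, and replicate 2, with the highest T cell sum (89.9), has the highest PDCD1LG2 and FOXP3 signal, while CTLA4 is highest on replicate 3.

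T cell markers were mostly higher in the arrays labelled pregnant, as PDCD1 and ICOS were, while HAVCR2 and LGALS9 were not called. Of 14 tested markers 12 were higher in the arrays labelled pregnant, 0 lower and 2 not called, with a median difference of 4.05. LCK, the kinase that starts T cell receptor signalling, was higher by 6.54 and CD8A, the coreceptor of cytotoxic T cells, by 6.05. Their summed signal was 14.5 to 17.6 in the group labelled non-pregnant, against 51.9, 89.9, 66.0 and 32.8 on replicates 1 to 4 labelled pregnant. Among these markers CD3G, CD5 and CD27, named after their values were seen, were well above background on no array labelled non-pregnant. The part of T cell content in the PDCD1, ICOS, PDCD1LG2, CTLA4 and FOXP3 values was not tested.

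IL10 was measured on all 8 arrays by its probe from base 661 (chr16:3568292-3568351, minus). It read -3.17, -2.99, -2.78 and -3.12 in the group labelled non-pregnant, against -2.82, -1.97, -2.71 and -3.35 in the group labelled pregnant. The groups overlapped and pregnant-labelled replicate 2 was the highest. The means were -3.02 ± 0.17 and -2.71 ± 0.57 (SD, n = 4 each), and the difference of 0.30 (SE 0.29) did not pass the test (limma adjusted p = 0.385). Its sign turned to -0.08 with median scaling and -0.18 with no scaling. The second IL10 probe, from base 511 (chr16:3568442-3568501, minus), was well above background on no array and also highest on pregnant-labelled replicate 2, with an intensity of 30.2. Most like IL10 over the 8 arrays were the chemokine CXCL9 (Pearson r 0.947) and the immediate early genes FOS and FOSB (0.944 and 0.943), none of them called. Without pregnant-labelled replicate 4, CXCL9 (2.15, adjusted p = 0.00937) and FOSB (2.19, 0.0284) were called higher.

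The IL10 receptor chains differed little, IL10RA by 0.37 and IL10RB by 0.13, neither called and both of unsettled sign across scalings, although IL10RB was called higher with the mean of all its tested probes (0.48, adjusted p = 0.0222). Of the 11 tested genes of IL10 signalling and IL10 transcription 6 were higher, 1 lower and 4 not called, with a median of 1.15. STAT3, which carries the signal of the receptor, rose from -1.43 ± 0.48 to 1.19 ± 0.14 (SD, n = 4 each), a difference of 2.62 (limma adjusted p = 3.27e-05). JAK1, the kinase bound to the receptor, was higher by 1.95. PRDM1, a transcription factor of plasma cells and effector T cells, was higher by 4.96 with no opposite call among its 4 other tested probes. NFIL3, a transcription factor that can drive IL10, was higher by 1.29 and lost the call with no scaling (adjusted p = 0.160). The lower gene, named after its value was seen, was ETV3 (-1.72).

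TGFB, a cytokine that induces FOXP3, was followed through 17 tested genes, of which 8 were higher, 2 lower and 7 not called, with a median of 0.52. The shares over all genes were 29.7% higher and 32.5% lower. With only probes well above background on all 8 arrays, 8 of 15 were higher and 1 lower. TGFB1 differed by 0.49 and was not called (limma adjusted p = 0.180), but was called higher without pregnant-labelled replicate 4 (0.76, adjusted p = 0.0171). TGFB2 and TGFB3 were higher by 2.21 and 3.16, and LTBP3, which tethers the latent cytokine to the matrix, by 3.38. TGFBR3, a coreceptor, was higher by 2.49 on its brightest probe, but 1 of its 3 other tested probes was called the opposite way and the mean of all its tested probes was not called (0.23, adjusted p = 0.512). The lower genes, named after their values were seen, were TGFBR1 (-5.72) and SMAD2 (-0.63).

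Interferon gamma induces IDO1 and CD274 in many cells. IFNG itself was well above background on 3 arrays, all labelled pregnant. Of 18 tested genes of its response 12 were higher in the arrays labelled pregnant, 1 lower and 5 not called, and the median was 2.25. The shares over all genes were 29.7% higher and 32.5% lower. CIITA and GBP5, named after their values were seen, passed the filter through the arrays labelled pregnant alone, so the count is not read against these shares. With only probes well above background on all 8 arrays, 9 of 15 were higher and 1 lower, with a median of 1.57. IRF1, a transcription factor through which the cytokine acts on CD274 and IDO1, rose from -1.74 ± 0.11 to 2.90 ± 0.34 (SD, n = 4 each), a difference of 4.63 (SE 0.21, limma adjusted p = 5.56e-07). IFNGR1, a receptor chain, was higher by 2.01. The immunoproteasome genes PSMB8 and PSMB9 were higher by 3.69 and 4.09 and the chemokine CXCL10 by 3.42. The lower gene, JAK2 (-0.65), was named after its value was seen. IDO1 and CD274 themselves gave no reading well above background on any of the 8 arrays.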

How the data were processed

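Per the file headers, the deposited processed intensity values come from Agilent Feature Extraction 11.5.1.1 (protocol name GE1_1105_Oct12, design build HGSC Btau_3.1). The deposited flags say whether a spot was well above background, saturated or an outlier. The log2 value table deposited by the authors correlated with log2 of the processed intensity at r of 0.999 or above on each array and had 75th percentiles near 0, from which its scale and centring were read, and no dye direction applies. Its column medians were -4.21, -4.01, -4.00 and -3.77 for the labelled non-pregnant replicates and -3.56, -3.61, -3.64 and -3.61 for the labelled pregnant ones. It served as an alternative. Cy3-labelled RNA was made with an oligo-dT primer, per the labels' protocols.

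From the intensities, 1319 control spots per array and 119 spots with an outlier flag were left out (0 others were saturated), spots of a probe were averaged, log2 was taken and each array's 75th percentile (intensities of 798 to 1797) subtracted. A probe was well above background where a share of at least 0.5 of its spots was. Fits used limma 3.58.1 in R 4.3.3 over all 8 arrays with no covariate, and were checked on simulated data. Of 100 probes of 34627 changed by 1 on the log2 scale, 8% were recovered, and 66% of 100 changed by 2. Far fewer probes were changed there than in the real data, where 62.3% of tested genes were called. The adjusted p depends on that share, so these recoveries do not carry over to the real data. The number of arrays limits the precision. Names came from accessions in a cattle gene table for 28112 probes, other accessions for 1770, symbols for 5520, synonyms for 149 and descriptions for 2328. The members and lists were chosen with earlier results of these data known. Named genes are every member, its listed partners, up to 4 called genes per list with the largest differences among those well above background on all 8 arrays, and the 3 genes most like each tested member. Alternatives changed the background correction, scaling, filter, probe choice, moderation, input table and arrays used, or added the replicate block. Whether the replicate numbers pair the samples was not settled. The planned search for promoter motifs was not run.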

Additional observations from a re-analysis of the deposited data

Results flagged for a closer look

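An array stood apart from the other 3 of its group, by Dixon's gap divided by range above the critical value for 4 arrays, in 3 of 59 groups of 4 arrays looked at, close to the 1 in 20 that chance gives. HAVCR2 (probe from base 1232) read -5.68 on non-pregnant-labelled replicate 3 against -4.07 to -3.79 on the others (0.852). The interferon gamma receptor gene IFNGR1 read 1.80 on pregnant-labelled replicate 1 against 1.29 to 1.31 (0.969). The transcription factor gene IRF1 read -1.91 on non-pregnant-labelled replicate 1 against -1.69 to -1.67 (0.884).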

How the results depend on the processing

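ENTPD1 and NT5E stayed lower and called under all 21 alternatives, with differences of -8.07 to -6.91 and -6.25 to -4.49. Leaving out each array in turn gave 7463 to 8509 called genes (8318 with all arrays), 127 to 146 called genes on the companion lists, 0 members higher and 2 lower. Without a filter on dim probes 3 members were called higher: PDCD1LG2 (limma adjusted p = 0.000491), CTLA4 (0.0337) and IDO1 (0.0208). CTLA4 was well above background on 1 array and IDO1 on none, so no size is given for them. With no filter and no scaling together, an alternative chosen after seeing the data, 1 was, PDCD1LG2 (3.41, 0.000634). HAAO turned to -0.071 with the mean of all its tested probes. With the replicate block 8063 genes were called, and the count of members was as before. Same-numbered arrays of the 2 groups deviated together at r of 0.009 to 0.155, and differently numbered ones at -0.113 to 0.048. Whether the numbers pair the samples is therefore not settled. The median difference of all genes was -0.40 with median scaling and -0.50 with no scaling, and 34.8% and 31.4% of called genes were then higher, against 47.8%. Of 1778 values of 85 named genes, 1700 kept direction and side of the threshold, 16 lost the call, 16 gained it, 45 uncalled ones changed sign and 1 reversed.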
